A study of Rattus norvegicus with 10 samples.

Results

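The paralogous miR-23, miR-27 and miR-24 clusters were described in the medial prefrontal cortex (mPFC) of chronic morphine-treated and saline-treated rats. The members were 10 mature miRNAs chosen by name, the 5 guide strands rno-miR-23a, rno-miR-23b, rno-miR-27a, rno-miR-27b and rno-miR-24 and the 5 starred strands rno-miR-23a*, rno-miR-27a*, rno-miR-27b*, rno-miR-24-1* and rno-miR-24-2* (rno, for rat, is left out below), and all 10 had a probe among the 679 rat miRNA probes of the array. They were chosen with the morphine against saline results of these arrays known, so their differences between the groups are given as a description, without p-values. miRNA levels were measured in 5 morphine-treated and 5 saline-treated Sprague Dawley rats, wild-type and 2 months old, with 1 array per rat. Morphine was injected intraperitoneally 2 times per day for 5 days, with 10 mg/kg per injection on day 1, 20 mg/kg on day 2, 30 mg/kg on day 3 and 40 mg/kg on days 4 and 5, and the saline-treated rats were injected on the same schedule. Each RNA was read in 1 color on a miRCURY LNA Array, whose probes contain locked nucleic acid, a modified nucleotide that binds short RNAs tightly.

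The 2 clusters are paralogs, copies of an ancestral gene group, and each encodes a miR-23, a miR-27 and a miR-24 hairpin on 1 primary transcript. Each hairpin is cut into a duplex, of which the guide strand is mostly kept by Argonaute to repress messenger RNAs, while the opposite strand, marked by a star in the older naming, is mostly degraded. The clusters are known for roles in endothelial cells, blood vessel growth, muscle and fat cell differentiation, and they are expressed widely, including in brain. A guide finds its targets mainly through its seed, bases 2 to 8 from the 5′ end. In the GRCr8 rat gene table of RefSeq, Mir23b, Mir27b and Mir24-1 lay on the minus strand of chromosome 17 within 814 bp (positions 1818669 to 1819482), inside the span of Aopep, which encodes an aminopeptidase. The span of Fancc, a DNA repair gene, overlapped part of this cluster. Mir23a, Mir27a and Mir24-2 lay on the minus strand of chromosome 19 within 389 bp (positions 40859455 to 40859843), inside no other gene, with Zswim4 the nearest at 1713 bp. The table gives gene spans only, so exon and intron positions are not stated.

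The mature sequences show which probes could share signal, because the a and b copies are nearly the same RNA. Of the 10 members, 9 were matched to RefSeq (GRCr8), and miR-23a* was not. The guides of the miR-23 hairpins and the miR-27 hairpins each share a seed, given in capitals:
miR-23a: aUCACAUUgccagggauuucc
miR-23b: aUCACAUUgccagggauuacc
miR-27a: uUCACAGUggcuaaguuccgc
miR-27b: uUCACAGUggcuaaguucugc
miR-24: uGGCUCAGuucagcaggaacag

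Counted from the 5′ end, miR-23a and miR-23b differ by 1 base (U19A, the miR-23a base first), and miR-27a and miR-27b also differ by 1 base (C19U, the miR-27a base first). Both differences lie outside the seed. How far such a probe pair cross-hybridizes was not measured here, so that each guide value may hold signal of its paralog. The miR-24 sequence is the same from both hairpins, and its probe reads both loci together. Among RefSeq's rat mature miRNAs, the seed of miR-23a occurs in 2 names, miR-23a and miR-23b, the seed of miR-27a in 2 names, miR-27a and miR-27b, and the seed of miR-24 in 1. The starred strands matched to RefSeq have these sequences, with bases 2 to 8 in capitals:
miR-27b*: aGAGCUUAgcugauuggugaacag
miR-27a*: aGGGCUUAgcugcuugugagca
miR-24-1*: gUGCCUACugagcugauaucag
miR-24-2*: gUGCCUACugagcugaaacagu

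miR-24-1* and miR-24-2* share their first 16 of 22 bases, whereas miR-27a* and miR-27b* share a run of 9 bases but not the seed.

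Intensities are background-subtracted, averaged over the 4 spots of a probe and scaled between arrays by the median of the 120 rat miRNA probes that reached an intensity of 30 on all 10 arrays. Values below 30 were set to 30 before taking log2. Rat miRNA probes at 30 or more before scaling numbered 260 to 419 on the morphine arrays and 180 to 281 on the saline arrays. Defining markers of the labelled tissue were absent from the saline arrays in part, so that it is in doubt whether these hold RNA of the same tissue makeup as the morphine arrays. The neuron list summed to a scaled intensity of 44640 to 143594 on the morphine arrays and 2967 to 6333 on the saline arrays, and miR-9, miR-128, miR-137, miR-153 and miR-218a, 5 of its 8 members, were below 30 on all 5 saline arrays. The oligodendrocyte list summed to 120 to 1654 on the morphine arrays and 0 on every saline array, the red blood cell list to 241 to 3137 in morphine and 0 to 65.5 in saline, and the immune cell list to 1180 to 5474 in morphine and 28.3 to 182 in saline. The connective tissue and vessel wall list summed to 1435 to 5095 on the morphine arrays and 9527 to 21919 on the saline arrays. In all these sums, values below 0 counted as 0. The median negative-control probe read -67.0 to 9.5 on the morphine arrays and -186.25 to -27.25 on the saline arrays after background subtraction. The part of the background in the low marker values was not tested. In such bulk tissue, fewer cells of a type and less RNA per cell cannot be told apart, and neither can treatment and any other difference between the 2 sets of arrays.

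The 5 guide strands were detected on most or all arrays labelled morphine and saline, and for none did the groups separate. miR-23a, a miRNA of vascular and muscle tissue, had scaled intensities of 517, 300.0, 1949, 614 and 2592 on morphine arrays 1 to 5 and of 784, 379, 685, 361 and 6856 on saline arrays 1 to 5. The ranges overlapped, and saline array 5 alone lay far above the rest. Its log2 fold change, morphine over saline, was -0.01 (standard error 0.85), and 0.73 without saline replicate 5. miR-23b, its paralog with the same seed, had intensities of 1804, 766, 2311, 1040 and 3583 on the morphine arrays and of 1419, 3196, 1082, 3413 and 1297 on the saline arrays. Each group held both high and low arrays, and saline array 5, the highest for miR-23a, was the second lowest of its group for miR-23b. The log2 fold change of miR-23b was -0.17 (standard error 0.55).

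miR-24, the guide that both clusters encode, had scaled intensities of 1975, 1654, 3854, 956 and 4865 on morphine arrays 1 to 5 and of 1470, 3379, 1210, 4945 and 2888 on saline arrays 1 to 5. The groups covered nearly the same range, and the log2 fold change was -0.11 (standard error 0.57). miR-27b, known as a regulator of lipid metabolism and vessel sprouting, had intensities of 518, 316, 1213, 61.5 and 1718 on the morphine arrays and of 515, 1339, 344, 1565 and 376 on the saline arrays. Morphine array 4 was the low one, and the log2 fold change of -0.55 (standard error 0.84) was 0.18 without morphine replicate 4. miR-27a had intensities of 380, 126, 401, 3.62 and 636 on the morphine arrays and of 661, 1150, 91.4, 1640 and -130 on the saline arrays. It was thus below 30 on 1 array of each group, morphine array 4 and saline array 5. Its log2 fold change was -0.65 (standard error 1.13), and it was 0.05 without morphine replicate 4 and -1.50 without saline replicate 5. All 5 guide differences were smaller than their standard errors.

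**Figure D1:**
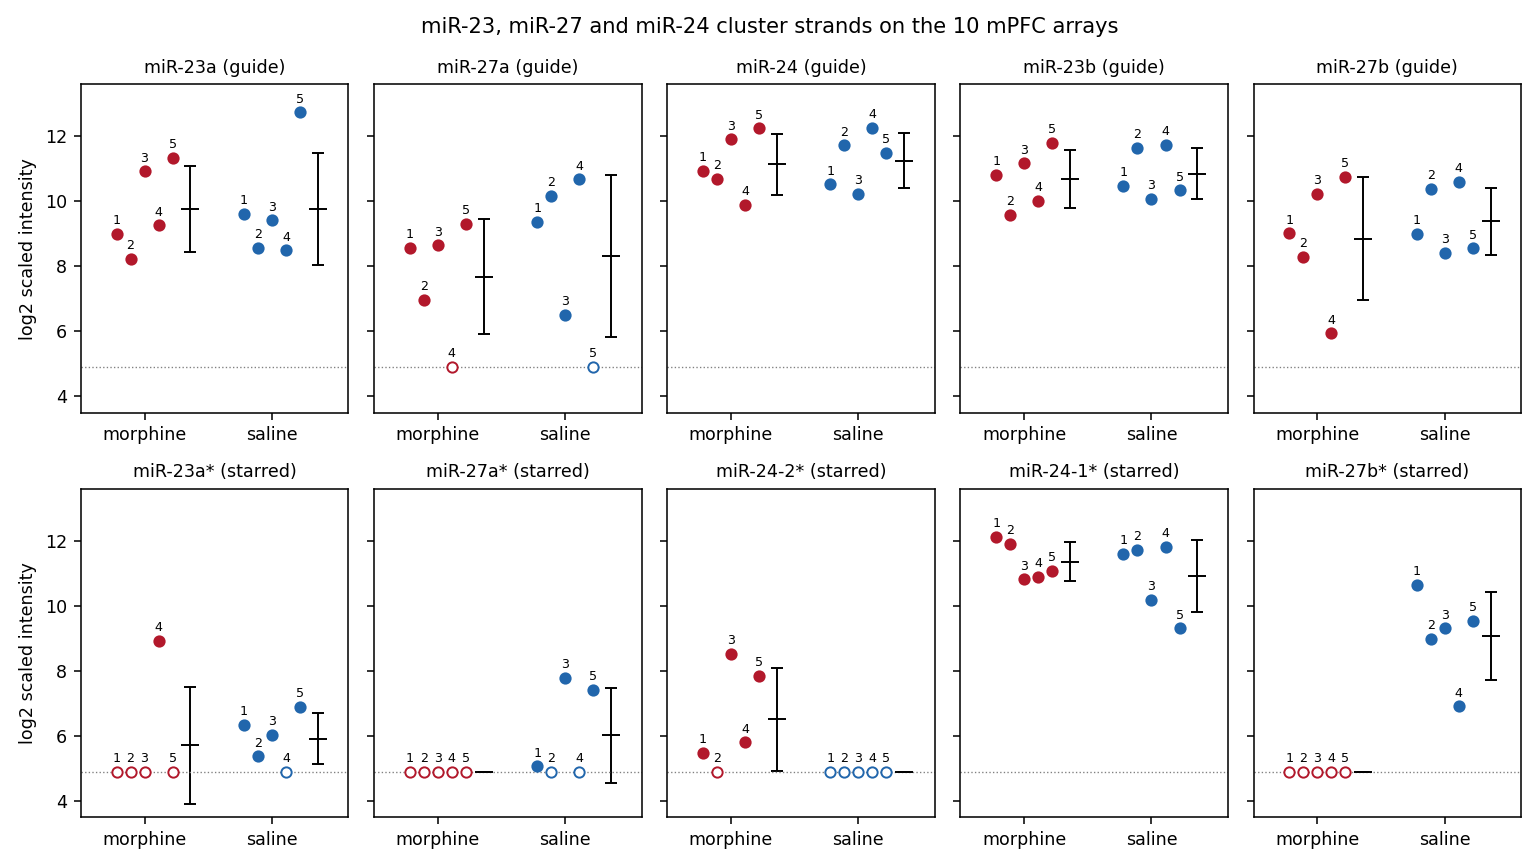
Log2 scaled intensity of the 5 guide strands (top) and 5 starred strands (bottom) on the morphine arrays (red) and the saline arrays (blue), numbered by replicate, with the mean and SD of each group in black (n = 5). Open points lie below 30 and are drawn at the dotted line; the guides overlap between the groups, whereas miR-27b* is below 30 on all 5 morphine arrays and at 120 or more on all 5 saline arrays.

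The spots of 1 probe did not always hold the same value, and this limits the guide values. Each probe has 2 spots in the upper blocks of the slide (1 to 18) and 2 in the lower blocks (19 to 36). The 2 spots in the same blocks lay close together, with 1 of 100 guide pairs over 4-fold apart. Between upper and lower blocks, guide values were over 4-fold apart in 4 of 25 cases on the morphine arrays and 7 of 25 on the saline arrays, beside 4.67% and 10.8% of all values of the 120 probes. Before scaling, miR-24 read 4111 in the upper blocks and 110 in the lower blocks of morphine array 2, 6102 and 241 on saline array 2, and 8034 and -91.0 on saline array 4. On morphine array 1, in contrast, it read 2603 and 2004. On morphine array 2 and on saline array 4, 4 of the 5 guides were over 4-fold apart, and for each of them the lower blocks were dimmer. Of the 120 probes, 15.8% were over 4-fold apart on morphine array 2 and 16.7% on saline array 4. Their median log2 ratio of upper over lower blocks was -0.61 on morphine array 2 and 0.39 on saline array 4. The typical probe was thus brighter in the lower blocks of morphine array 2, unlike these guides. miR-24-1* was also brighter in the lower blocks of morphine array 2, with 2178 in the upper blocks and 7620 in the lower blocks.

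The guide differences between the groups changed with the blocks that were read, an alternative chosen after the data were seen. The log2 fold change of miR-24 was -0.38 in the upper blocks and 1.50 in the lower blocks, and that of miR-23a was -0.31 and 1.30. For miR-23b it was -0.03 and 0.02, for miR-27b -0.19 and -0.88, and for miR-27a -0.57 and -0.60. The groups overlapped for all 5 guides in both sets of blocks. With morphine replicate 2 and saline replicate 4 left out together, the 5 guides ranged from -0.11 (miR-27b) to 0.32 (miR-23b).

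**Figure D2:**
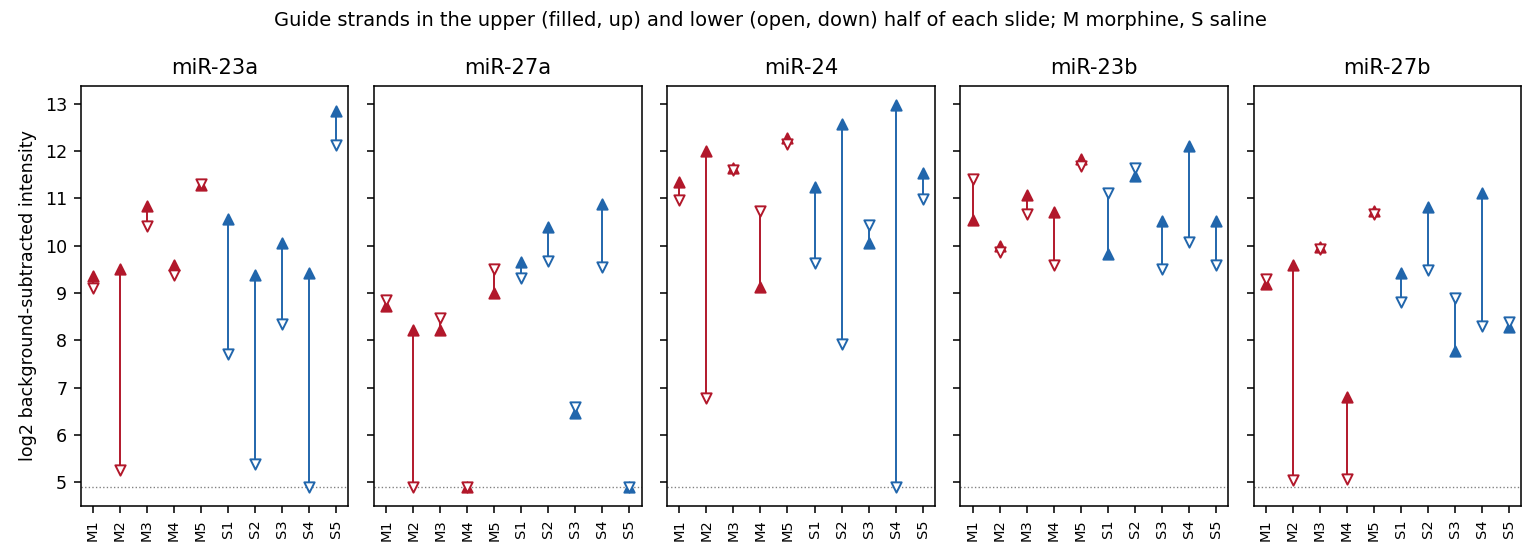
Log2 background-subtracted intensity before scaling of the 5 guides in the upper blocks (filled) and the lower blocks (open) of each of the 5 morphine (red, M) and 5 saline (blue, S) slides, with values below 30 drawn at the dotted line. Lines join the 2 values of 1 array and are longest for miR-24 on saline array 4 (8034 and -91.0) and morphine array 2 (4111 and 110).

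Among the starred strands, miR-27b* differed between the groups on every array. The strand opposite miR-27b had scaled intensities of 3.43, -31.5, 3.37, 20.0 and 3.85 on morphine arrays 1 to 5 and of 1613, 505, 635, 120 and 744 on saline arrays 1 to 5. All 5 morphine arrays lay below all 5 saline arrays, with the closest values at 20.0 and 120. In the upper and in the lower blocks the groups were also apart, at 30.3 or less in morphine against 191 or more in saline in the upper blocks, and 8.36 or less against 65.5 or more in the lower blocks. Before background subtraction, the foreground intensity was 85.5 to 133 on the morphine arrays and 334 to 1876 on the saline arrays. In this processing miR-27b* was at least 17.1-fold lower in the morphine group, a bound that sets the saline mean against the higher, on each morphine array, of 30, the lowest detected probe and the signal of miR-27b* itself. The fitted log2 fold change of -4.17 (standard error 0.60) depends on the floor of 30, and it was -2.94 with no background subtracted and -2.62 with normexp, a model-based background correction. On the saline arrays miR-27b* read above all 7 negative-control probes, and on 1 of the 5 morphine arrays it did so. Of the connective tissue and vessel wall list, 3 of 5 members were lower in morphine and 2 did not pass, beside 11.6% lower among all 301 tested probes. Of these 3, miR-199a-3p reached 30 on 0 morphine arrays and miR-199a-5p on 1, so that they entered the test through the saline arrays, and miR-214 reached it on all 10. Its member miR-199a-5p followed the same direction (-0.980 to 47.3 on the morphine arrays, and 3525 to 12198 on the saline arrays). The part of such tissue in the miR-27b* difference was not tested. The longest run of bases that miR-27b* shares with miR-21, another miRNA with lower values in morphine (log2 fold change -6.95), was 6, and miR-21 was chosen for this comparison after its values were seen.

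The remaining starred strands overlapped between the groups, but miR-24-2* and miR-27a* were near the detection limit. miR-24-1*, from the miR-23b cluster, had scaled intensities of 4457, 3840, 1810, 1909 and 2176 on the morphine arrays and of 3095, 3380, 1166, 3593 and 638 on the saline arrays. It was detected on all 10 arrays with a log2 fold change of 0.44 (standard error 0.57), which was 0.04 without saline replicate 5. miR-24-2*, its counterpart in the miR-23a cluster with the same seed, had intensities of 45.0, -32.3, 367, 56.0 and 231 on the morphine arrays and of -151, -462, -10.4, -166 and -183 on the saline arrays. miR-24-2* thus reached 30 on 4 of 5 morphine arrays and on 0 of 5 saline arrays, and no fold is given because 1 morphine array was below 30 too. On the foreground intensities, without subtraction, the groups overlapped (104 to 402 in morphine against 79.2 to 204 in saline), and the local background differed between the arrays (63 to 141 in morphine against 84 to 348 in saline, medians over all spots). The part of the local background in the miR-24-2* values was not tested further.

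miR-23a* had scaled intensities of 12.6, -9.80, 10.7, 488 and 7.45 on the morphine arrays and of 81.0, 41.6, 66.0, 24.6 and 119 on the saline arrays. Apart from morphine array 4, no morphine array reached 30, while 4 of 5 saline arrays did. Morphine array 4 alone held 488, and its spots read 1205 and 914 in the upper blocks but 106 and 68 in the lower blocks. The log2 fold change of miR-23a* was -0.20 (standard error 0.78) with all arrays and -1.01 without morphine replicate 4. miR-27a* had intensities of -31.3, -40.0, -29.7, 28.7 and -36.0 on the morphine arrays and of 33.5, -25.0, 221, -53.2 and 171 on the saline arrays. It lay above all 7 negative-control probes on 0 morphine arrays and on 3 saline arrays. The opposite strand of miR-23b, which was not among the listed members, was on the array too, and its values were below 30 on all 10 arrays, from -47.4 to -4.47 in morphine and from -306 to -21.5 in saline.

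The 2 strands of a hairpin were compared next by taking the difference between their log2 fold changes, since levels of different probes cannot be set against each other. For the miR-27b hairpin the difference was -3.63 on the log2 scale, a value that depends on the floor because miR-27b* was below 30 on all 5 morphine arrays, and that lay between -5.07 and -2.03 in the 13 alternatives described below. Array by array, the starred minus guide log2 value was -4.11, -3.40, -5.34, -1.04 and -5.84 in morphine and 1.65, -1.41, 0.89, -3.70 and 0.98 in saline, so that the groups overlapped through morphine array 4 and saline array 4. The difference was 0.55 for miR-24-1*, but 0.09 without saline replicate 5 and -0.98 in the lower blocks. It was -0.19 for miR-23a*, with -1.12 without morphine replicate 4, 0.41 without morphine replicate 5, -1.58 in the lower blocks and 0.42 with scaling by the 75th percentile. The value of miR-23a* also rests on the floor, with 4 of 5 morphine arrays below 30. Of 63 hairpins with both strands tested, that of miR-27b* stood at rank 11 from the most negative difference. The most negative differences were those of miR-551b* (-6.48), miR-30c-1* (-6.42) and miR-9* (-6.21), whose guides were all higher in morphine by the test. The most positive were those of miR-206* (3.90), miR-466c* (4.10) and miR-21* (4.25). Several of these depend on the floor as well, as miR-9 was below 30 on all 5 saline arrays. Across the array, 23 of 96 tested starred probes were higher, 14 lower and 59 neither by the limma threshold (adjusted p under 0.05), at a median log2 fold change of 0.25. Among the 205 probes without a star, 75 were higher, 21 lower and 109 neither, with a median of 0.69.

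**Figure D3:**
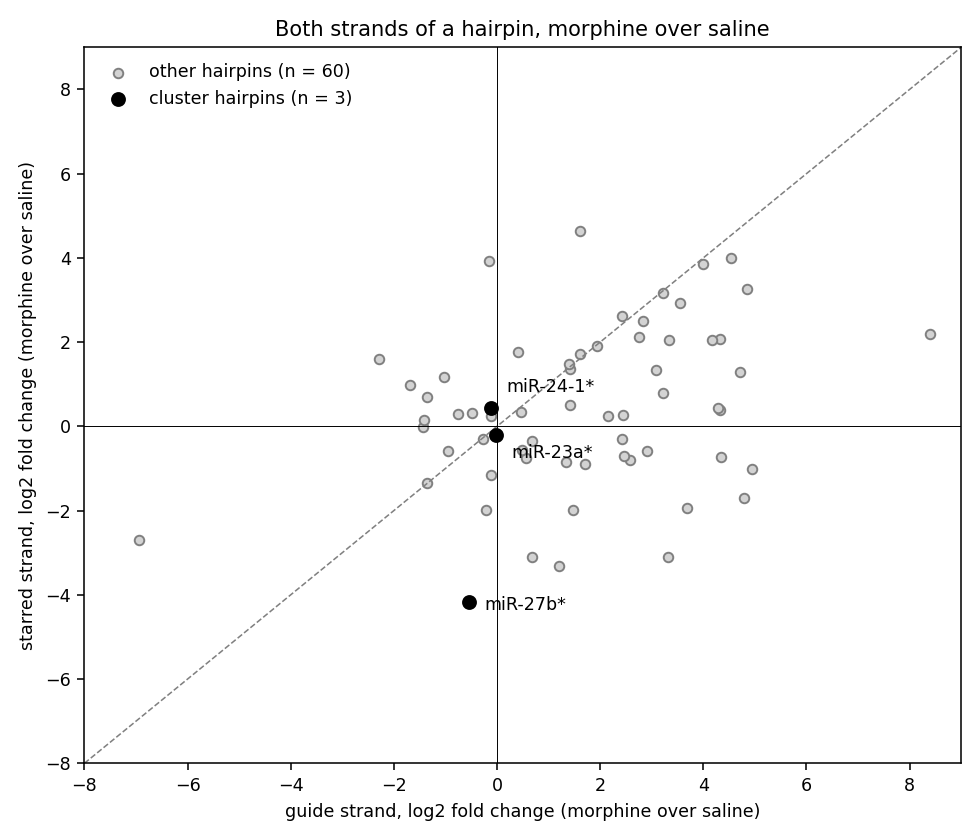
Log2 fold change, morphine over saline, of the starred strand against that of the guide for the 63 hairpins with both strands tested, with the 3 cluster hairpins in black and the diagonal dashed. miR-27b* lies at -4.17 with its guide at -0.55, while miR-24-1* and miR-23a* lie within 0.55 of their guides.

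Of the 10 members, 8 reached 30 before scaling on at least 5 arrays and entered the test over 301 rat miRNA probes. The others were miR-24-2* and miR-27a*, which before scaling was at 30 or more on 1 morphine array and 3 saline arrays. miR-27b* entered through the saline arrays alone. With limma at an adjusted p under 0.05, 1 member was lower (miR-27b*), 0 were higher and 7 did not pass. With the methods' t-test on linear intensities, adjusted in the same way, 0 of the 8 passed. Over all tested probes 44.2% passed, 32.6% higher and 11.6% lower. The groups did not overlap in 29.6% of them, with morphine above in 21.3% and morphine below, as for miR-27b*, in 8.31%. Nothing is read from the count of members, as they were chosen with this contrast known. The median log2 fold change of all 301 probes was 0.45, and relative to this median the guides lay at -1.09 (miR-27a), -0.99 (miR-27b), -0.62 (miR-23b), -0.56 (miR-24) and -0.46 (miR-23a). Over 6 other scalings and background corrections miR-27a and miR-27b stayed below the median probe, whereas the other guides lay on either side of it. Under cyclic loess, miR-24 was 0.46 above the median probe and miR-23b 0.25 above it. On the scale of percentiles among the 301 log2 fold changes, the guides stood between 26.2 (miR-27a) and 40.2 (miR-23a), miR-24-1* at 49.8 and miR-27b* at 0.997.

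**Figure D4:**
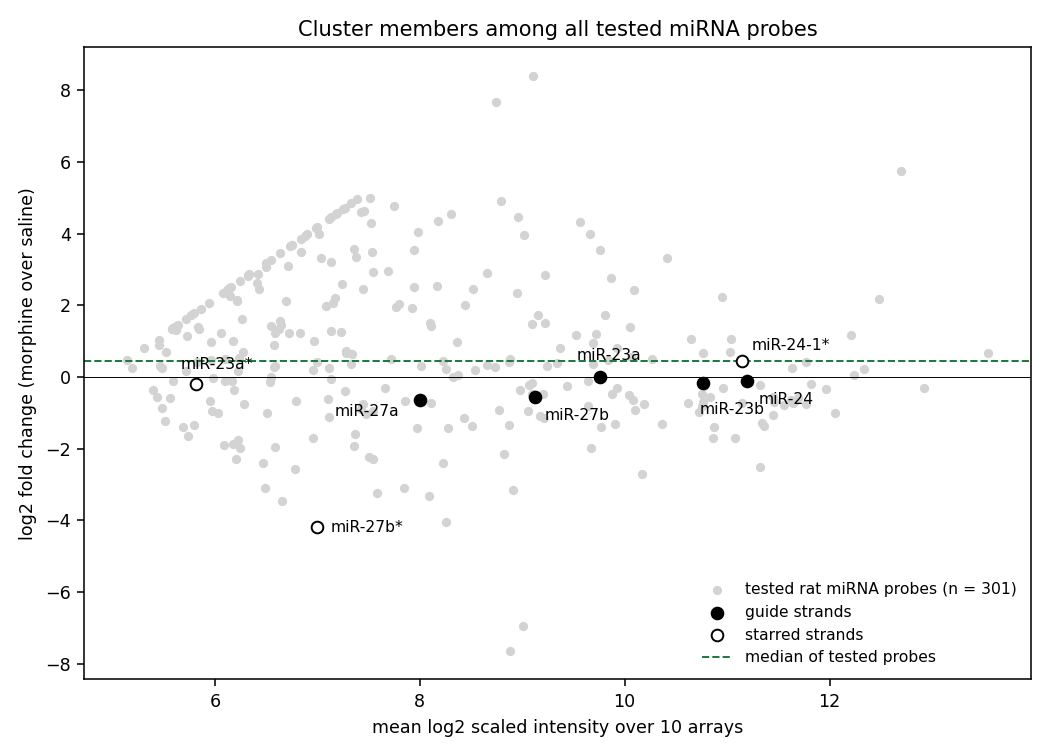
Log2 fold change, morphine over saline, against mean log2 scaled intensity over the 10 arrays for the 301 tested probes (grey), the 5 guides (black) and the 3 tested starred strands (open), with the median of all probes (0.45) dashed. The guides lie between -0.65 and -0.01 and miR-27b* at -4.17; the slanted edges are probes below 30 on all arrays of 1 group.

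Within the groups, miR-24, miR-23b, miR-27b and, less closely, miR-27a deviated on the same arrays when all 4 spots were averaged. After subtracting each group's mean, the Pearson correlation of log2 values over the 10 arrays, given as a description, was 0.89 between miR-24 and miR-27b, 0.85 between miR-24 and miR-23b and 0.84 between miR-23b and miR-27b. For miR-27a it was 0.83 with miR-27b, 0.78 with miR-23b and 0.62 with miR-24. miR-23a and miR-23b, with the same seed and 1 base apart, had a value of 0.10, and miR-23a and miR-24-1* of -0.81. Arrays share labeling, scaling and slide, and miR-24 and miR-27b have their spots in the same blocks, 1 and 19. In the upper blocks alone, miR-24 stood at 0.96 with miR-27b, 0.67 with miR-23b and 0.19 with miR-23a. In the lower blocks alone, it stood at 0.55 with miR-27b, 0.32 with miR-23b and 0.92 with miR-23a. Over 300 other probes, the closest to miR-23a were miR-221 (0.98), miR-135a (0.92) and miR-222 (0.92). The closest to miR-24 were miR-103 (0.94), miR-107 (0.91) and let-7e (0.91), to miR-23b miR-145 (0.89), miR-98 (0.88) and let-7d (0.86), and to miR-27b miR-136 (0.94), let-7f (0.93) and miR-352 (0.92). For miR-24 the next cluster member was miR-27b, at rank 5. For miR-23b it was miR-24, also at rank 5, and for miR-27b it was miR-24, at rank 6. For miR-23a the next cluster member stood only at rank 131 (miR-27b*, 0.33), and the next guide at rank 136 (miR-24, 0.31).

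Other miRNAs known from blood vessel growth included 4 that passed the same test, all of them undetected in saline. Of 18 listed, 13 were tested, and 4 were higher, 0 lower and 9 neither at the same limma threshold, at a median log2 fold change of 0.88 beside 0.45 for all probes. Among all 301 probes 44.2% passed and 32.6% were higher, so the count is near that share. The 4 were miR-218a (log2 fold change 4.95), miR-132 (4.54), miR-126 (4.84) and miR-126* (3.27). Of these, miR-218a is also on the neuron list, which summed higher on the morphine arrays. All 4 were at 30 or more on all 5 morphine arrays and below 30 on all 5 saline arrays, so that they entered the test through the morphine arrays alone and these log2 values depend on the floor. miR-126, the main miRNA of endothelial cells, had intensities of 655, 48.6, 4408, 852 and 3944 on the morphine arrays and of -42.4, -119, -29.2, -182 and -236 on the saline arrays. The guides of both clusters were at 30 or more on the saline arrays, except miR-27a on saline array 5, while the endothelial pair was below 30 on all 5. The cell source of the guide signal was not tested.

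miR-27b* had a log2 fold change from -6.03 (cyclic loess) to -2.44 (floor of 100) over 13 other ways of processing, of which the replicate block cannot move it. Without 1 saline array it was -4.71 to -3.78, and leaving out a morphine array could not move it because all 5 were at the floor. The direction of miR-27b was negative in all 13, from -1.92 to -0.11, of which the replicate block and a floor of 10 could not move it. Without morphine replicate 4 the direction of miR-27b was positive. The other 4 guides lay on both sides of 0. miR-24 ranged from -1.48 with scaling by the 75th percentile of all rat probes to 1.50 in the lower blocks, and miR-23a from -1.39 to 1.30 under the same 2 choices.

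**Figure D5:**
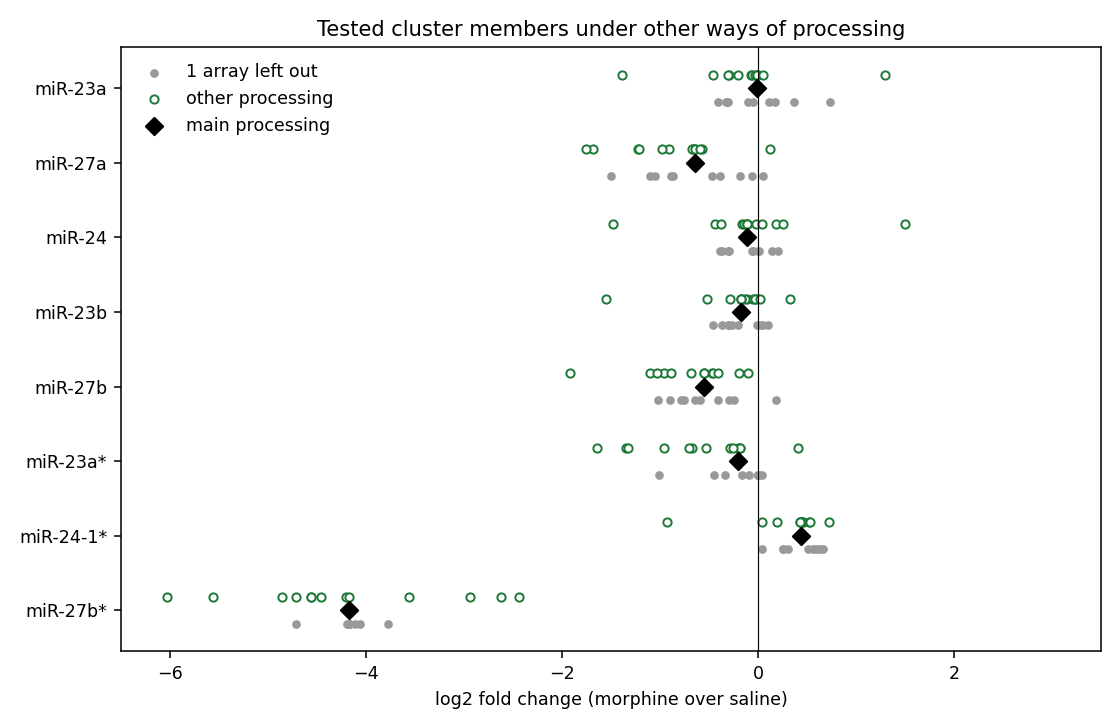
Log2 fold change, morphine over saline, of the 8 tested members under the main processing (diamonds), 13 other ways of processing (open circles) and 10 fits without 1 array (grey points). miR-27b* runs from -6.03 to -2.44, and miR-24 and miR-23a lie on both sides of 0.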

How the data were processed

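Total RNA was tagged by the authors with the dye Hy3 and applied to miRCURY LNA slides, and spots were extracted with GenePix software. For every spot the deposited table gives a linear foreground intensity and a second intensity after local background removal, neither scaled between arrays. All 35410 values of the deposited value table equaled the median of a probe's spots within 1e-06, and it served as that alternative. The background estimate, slide numbers and scan dates were not stated in the sources read. The members, lists and most alternatives were chosen with earlier results of these data known.

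The 4 spots were averaged, the scaling factor of an array was its median for those 120 probes that reached 30 on all arrays (factors of 819 to 1281 in morphine and 807 to 1101 in saline, brought back by their geometric mean), and values were floored at 30. After log2, limma was fitted to the 301 probes that reached 30 on 5 or more arrays (version 3.58.1, R 4.3.3), with two-sided p-values adjusted by Benjamini-Hochberg, checked on simulated data. Tables were made with pandas 2.3.3. The number of arrays limits the precision. Of the members, 0 spots reached the scanner ceiling of 65535. Named were the members, the 3 hairpins with the largest strand differences each way, the 3 probes closest to each guide detected on all arrays, markers of other cell types, and at most 4 vascular miRNAs past the test.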

Additional observations from a re-analysis of the deposited data

Results flagged for a closer look

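Of 20 groups of 5 arrays examined, 2 held an array that stood far from the others by Dixon's test. The usual chance rate of the test, about 1 in 20 groups, does not hold here because some groups have values tied at the floor. Groups that were all at the floor could not be flagged. miR-23a had a scaled intensity of 6856 on saline array 5, against 784 on the next highest saline array. miR-23a* had 488 on morphine array 4, while all other morphine arrays counted as 30 after flooring. With such ties any single array above the floor would be flagged.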

How the results depend on the processing

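Of 301 tested probes 133 passed, and 1 cluster member among them. With only the 120 probes at 30 or more on all arrays, 33 probes and 0 members passed, since miR-27b* is not among them. With the methods' t-test on linear intensities and Benjamini-Hochberg adjustment, 60 probes and 0 members passed. With scaling by the 75th percentile of all rat probes, chosen after the data were seen, 2 members passed, miR-23b as well as miR-27b*, both lower. Leaving out each array in turn, with the 301 probes kept, gave 102 to 135 probes and 1 to 1 members. The 98 higher and 35 lower calls became 69 and 49 with quantile normalization, 46 and 54 with cyclic loess, 74 and 59 on the negative-control baseline, 70 and 45 with no background subtracted, 45 and 50 with normexp, and 60 and 84 with the 75th percentile, and in that order the median log2 fold change over tested probes, 0.45 as reported, became -0.25, -0.27, -0.25, -0.05, -0.21 and -0.69. Same-numbered arrays did not deviate together (correlations of -0.40 to 0.05), which cannot settle whether the replicate number pairs rats. With the replicate number as a block 107 probes and 1 member passed. The median over all rat probes could not serve as a factor because it was negative on 5 arrays. Of 345 values of single members or hairpins under other settings, 18 moved by more than 1 SD and 327 did not. Part of the 327 could not move. The replicate block leaves every fold change as it was, and so does leaving out an array from a group that is all at the floor. A change of sign by less than 1 SD also counted as no move, as for miR-23a with -0.01 in the main processing and 1.30 in the lower blocks.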
